A study of Mus musculus with 8 samples.

Results

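The creatine system of cultured embryonic mouse heart cells was followed through 7 genes: the creatine kinase genes Ckm, Ckb, Ckmt1 and Ckmt2, the creatine transporter gene Slc6a8, and the creatine synthesis genes Gatm and Gamt. They were taken by symbol, and the list was chosen with earlier results of these data known. All 7 have a row among the 29844 genes of the coding table. The cells were labelled embryonic cardiomyocytes, from E18.5 hearts (late gestation) of the line B6.Cg-Tg(HIST1H2BB/EGFP)1Pa/J, so every library carries the H2B-eGFP transgene, a fluorescent histone. Dissociated cells grew for 4 days in full medium with serum on polydimethylsiloxane (PDMS), a silicone rubber, that was either stiff (about 150 kPa, 4 libraries) or soft (about 10 kPa, 4 libraries, the physiological stiffness per the series description). The labels do not say how many embryos or separate cultures stand behind the 4 libraries of a substrate, and the p-values below therefore speak only of differences among libraries, some of which may be technical. The library codes form a separate series on each substrate. The labels do not say what the series marks, and it cannot be told apart from substrate.

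Creatine kinases move a phosphate group between ATP and creatine. Phosphocreatine thereby buffers ATP where it is used, at myosin and at ion pumps, and carries energy between mitochondria and the contractile apparatus. Ckm encodes the cytosolic muscle subunit and Ckb the cytosolic brain subunit, which combine into homodimers and heterodimers. Ckmt2 encodes the sarcomeric mitochondrial enzyme of heart and skeletal muscle and Ckmt1 the ubiquitous mitochondrial enzyme, known from brain and epithelia. The heart makes little creatine and imports it through the transporter encoded by Slc6a8, while Gatm and Gamt encode the enzymes of the successive steps of creatine synthesis, best known from kidney, pancreas and liver. In the developing rodent heart Ckb is the early cytosolic form and Ckm and Ckmt2 gain with maturation.

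Each library held between 27646471 and 34693673 coding counts. Levels are given as CPM, in which counts are divided by library size, after TMM scaling, which corrects for differences in RNA composition between libraries. No gene length table was at hand, so a difference in level between genes is not read as a difference in transcripts. Marker sums, ratios and the choice of named genes by level do combine or rank genes, without a length correction. The 18 cardiomyocyte markers were all detected, and their summed level ran from 29298 to 41292 CPM in stiff libraries and from 27535 to 50324 CPM in soft libraries. Markers of other cells were present as well: the 12 fibroblast markers summed to 9153 to 14161 CPM on stiff and 9899 to 17343 CPM on soft. Of the 10 skeletal muscle markers, which matter here because skeletal muscle is rich in Ckm, Myod1, Myf5 and Pax7 were at 0 counts in all 8 libraries, and the list summed to 16.5 to 30.5 CPM on stiff and 24.9 to 32.1 CPM on soft. The sums on stiff and soft were 2225 to 3352 and 2395 to 3911 CPM for 10 smooth muscle and pericyte markers, 765 to 969 and 796 to 1232 CPM for 9 epicardial markers, 210 to 337 and 190 to 294 CPM for 10 endothelial markers (Cldn5 at 0), and 115 to 167 and 125 to 184 CPM for 10 leukocyte markers, with no marker called. These are bulk cultures, in which fewer cells of a type and less RNA per cell cannot be told apart.

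None of the creatine genes passed the test between stiff and soft. Of the 7 members, 6 passed the filter on low counts, and 0 of these 6 were called by edgeR's quasi-likelihood test, against a background of 0% of 14059 tested genes called in either direction. At an unadjusted p under 0.05 there were 0 of the 6, against 0.925% of all tested genes. That share is itself below the 0.05 of the threshold, so the lack of calls cannot be read as a lack of change in these genes. For every tested member the stiff and soft libraries overlapped, while 1.29% of all tested genes showed no overlap. The estimates were lower on stiff for Ckm, Ckb, Ckmt2 and Slc6a8 and higher on stiff for Gatm and Gamt, and for the 3 kinases they turned on 1 library, soft 4.

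Ckm, the muscle creatine kinase gene (chromosome 7, 19411094 to 19421583 on GRCm38.p6), had 63.3, 56.6, 63.9 and 86.5 CPM in stiff libraries 1 to 4, against 59.3, 51.1, 58.4 and 278 CPM in soft libraries 1 to 4. Soft 4 stood 4.70-fold above the median of the other 7 libraries, which lay between 51.1 and 86.5 CPM. The mean was 67.6 ± 13.1 CPM on stiff and 112 ± 111 CPM on soft (SD, n = 4 each). The log2 fold change was -0.73 (SE 0.54, 95% interval -1.94 to 0.49, edgeR adjusted p = 0.99997). Without soft 4 the soft mean was 56.3 ± 4.49 CPM (SD, n = 3), below the stiff mean, and the log2 fold change turned to 0.27 (SE 0.20, 95% interval -0.15 to 0.69, edgeR adjusted p = 0.99990). An RNA called A930016O22Rik, annotated as noncoding, overlaps the span of Ckm, and since strand handling is not given in the sources used here their reads cannot be told apart.

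Ckb, the brain-type cytosolic kinase gene (chromosome 12, 111669355 to 111672338), had 52.8, 48.3, 66.9 and 68.0 CPM in stiff libraries 1 to 4, against 51.4, 43.7, 71.5 and 172 CPM in soft libraries 1 to 4. Soft 4 was again highest, at 3.26-fold the median of the other 7, and libraries 3 of both substrates lay above libraries 1 and 2. The mean was 59.0 ± 9.97 CPM on stiff and 84.7 ± 59.5 CPM on soft (SD, n = 4 each). The log2 fold change was -0.52 (SE 0.37, 95% interval -1.34 to 0.29, edgeR adjusted p = 0.99997). Without soft 4 it turned to 0.10 (SE 0.22, edgeR adjusted p = 0.99990). The 10 neuronal and glial markers, of cells rich in Ckb, summed to 6.63, 12.7, 33.9 and 44.2 CPM in stiff libraries 1 to 4, against 12.05, 4.22, 35.3 and 59.8 CPM in soft libraries 1 to 4, with Snap25 among those at 0 in every library. They too were highest in soft 4 and higher in libraries 3 and 4 than in 1 and 2 of each substrate, and their part in the Ckb values was not tested. Pseudogenes of Ckb are annotated and were not analysed here, so the counts of Ckb are uncertain to the extent that reads fit both.

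Ckmt2, the sarcomeric mitochondrial kinase gene (chromosome 13, 91853386 to 91876923), had 54.1, 42.5, 14.8 and 65.7 CPM in stiff libraries 1 to 4, against 45.9, 46.6, 25.6 and 118 CPM in soft libraries 1 to 4. It had a high library in common with Ckm and Ckb, soft 4, at 2.57-fold the median of the other 7, but its low libraries were stiff 3 and soft 3, where Ckb was not low. The mean was 44.3 ± 21.8 CPM on stiff and 59.1 ± 40.6 CPM on soft (SD, n = 4 each). The log2 fold change was -0.42 (SE 0.52, 95% interval -1.57 to 0.74, edgeR adjusted p = 0.99997). It turned to 0.17 (SE 0.42, edgeR adjusted p = 0.99990) without soft 4, and stood at -0.13 without stiff 3. The interval allowed anything from 0.337-fold to 1.67-fold on stiff, and for Ckm from 0.261-fold to 1.40-fold, with soft 4 included. Without soft 4 the log2 interval ran from -0.76 to 1.11 for Ckmt2 and from -0.15 to 0.69 for Ckm.

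Ckmt1, the ubiquitous mitochondrial kinase gene (chromosome 2, 121357773 to 121363737), was listed with 0 counts in all 8 libraries and was not tested. A count of 0 allows a level of up to 0.0876 to 0.107 CPM, depending on the library (3 counts, counting error only). RefSeq places Strc and Gm33947 across part of its span, and how reads on shared bases were assigned is not given in the sources used here.

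**Figure D1:**
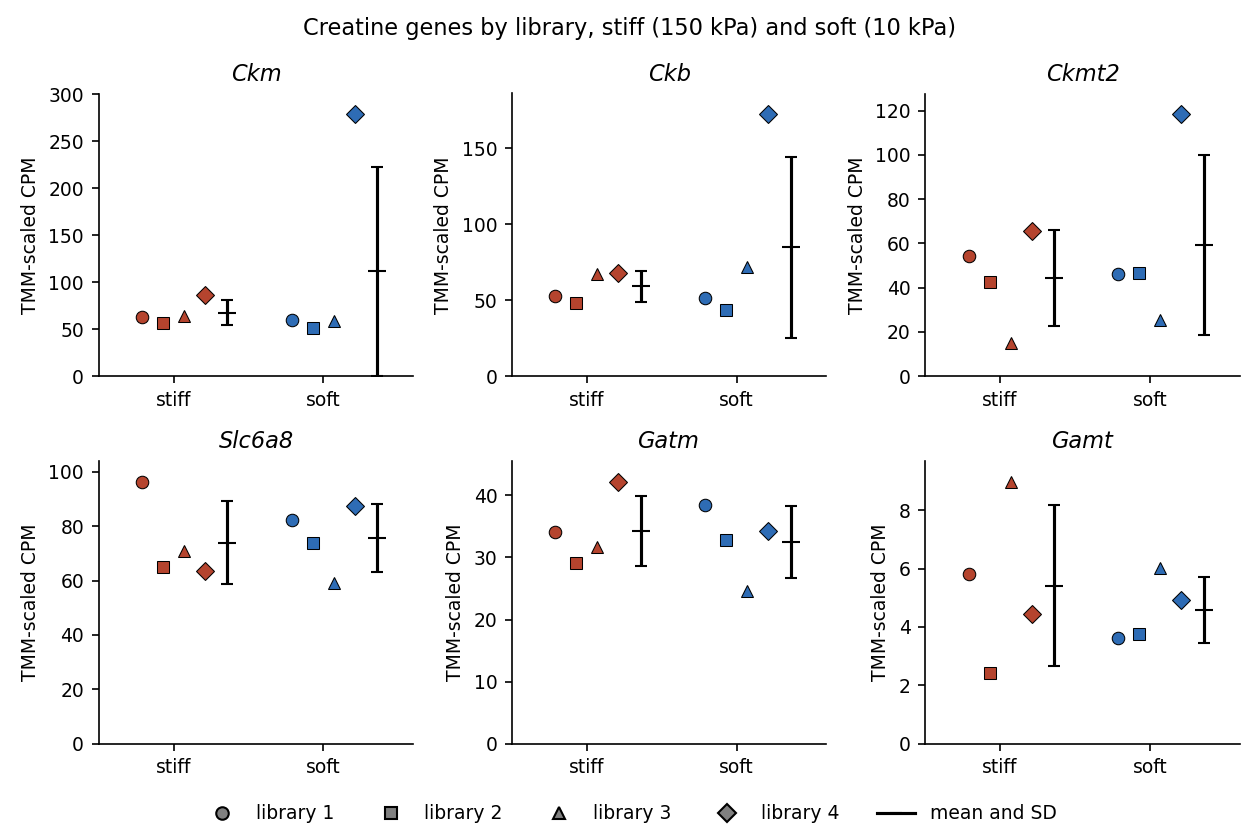
TMM-scaled CPM of the 6 creatine genes with counts, 1 panel per gene with its own linear axis from 0; each point is 1 library, shaped by its number, stiff in red on the left and soft in blue on the right, and the black bar is the mean and SD of 4 libraries. Soft 4 stands at 278 CPM for Ckm, 172 CPM for Ckb and 118 CPM for Ckmt2, above the 7 other libraries in each, while Slc6a8, Gatm and Gamt show no such point.

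The supply genes had no library so far from the rest. Slc6a8, the creatine transporter gene (chromosome X, 73673133 to 73682502), had 96.3, 64.9, 70.8 and 63.6 CPM in stiff libraries 1 to 4, against 82.4, 73.9, 59.0 and 87.5 CPM in soft libraries 1 to 4. The highest library was stiff 1 and the lowest soft 3, and the ranges of the substrates overlapped. The mean was 73.9 ± 15.2 CPM on stiff and 75.7 ± 12.5 CPM on soft (SD, n = 4 each). The log2 fold change was -0.03 (SE 0.19, 95% interval -0.45 to 0.38, edgeR adjusted p = 0.99997), which allows a change between 0.734-fold and 1.30-fold on stiff. The RNA Gm32261, annotated as noncoding, overlaps its span.

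Gatm, the gene of arginine:glycine amidinotransferase, which makes the creatine precursor guanidinoacetate (chromosome 2, 122594473 to 122611277), had 34.1, 29.1, 31.7 and 42.2 CPM in stiff libraries 1 to 4, against 38.4, 32.9, 24.5 and 34.4 CPM in soft libraries 1 to 4. Stiff 4 was the highest and soft 3 the lowest. Its log2 fold change was 0.07 (SE 0.22, 95% interval -0.40 to 0.55, edgeR adjusted p = 0.99997). Gamt, the gene of guanidinoacetate methyltransferase, which turns that precursor into creatine (chromosome 10, 80258151 to 80261025), had 5.82, 2.42, 8.97 and 4.44 CPM in stiff libraries 1 to 4, against 3.62, 3.76, 6.01 and 4.92 CPM in soft libraries 1 to 4. Both the highest and the lowest value were on stiff, and library 3 was the highest of each substrate. Its log2 fold change was 0.24 (SE 0.51, 95% interval -0.84 to 1.32, edgeR adjusted p = 0.99997), which turned to -0.12 without stiff 3.

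**Figure D2:**
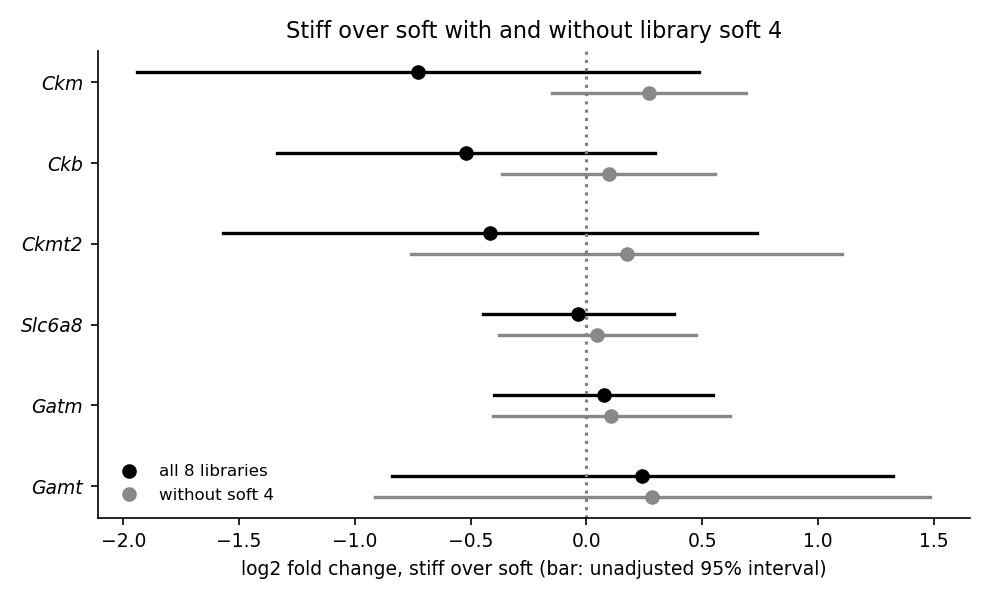
Log2 fold change of stiff over soft for the 6 tested creatine genes, 1 row per gene; dots are edgeR estimates and bars their unadjusted 95% intervals, in black with all 8 libraries and in grey without soft 4. Every interval crosses 0, and the estimates of Ckm, Ckb and Ckmt2 lie at -0.73, -0.52 and -0.42 with soft 4 and at 0.27, 0.10 and 0.17 without it.

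Soft 4 was high for a part of the table as well as for the kinases. It was above each of the 7 other libraries for 3 of the 6 tested members and for 19.5% of tested genes. Without it the sign of the log2 fold change turned for 4 of the 6 members (the kinases, and Slc6a8 to 0.05) and for 20.7% of tested genes. Its excess in Ckm ranked 4 among the 6192 genes with a mean of at least 32 CPM, that in Ckb ranked 16 and that in Ckmt2 ranked 40. Among all 14059 tested genes the ranks were 187, 347 and 572. An excess at least as large was found for 1.33%, 2.47% and 4.07% of them. The excess was 1.24-fold for Slc6a8, 1.04-fold for Gatm and 1.11-fold for Gamt. Within the soft group the gap between soft 4 and the next library was past Dixon's critical value for Ckm, as for 1.6% of tested genes on the high side, and not for Ckb or Ckmt2.

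The summed cardiomyocyte markers were also highest in this library. The sum was 50324 CPM in soft 4 and 27535 to 29683 CPM in soft 1 to 3, or 1.70-fold the median of the other 7. By the same measure the fibroblast sum was 1.65-fold and the neuronal and glial sum 4.70-fold. The endothelial and leukocyte sums were 0.94-fold and 0.93-fold. A sum weights abundant genes most, and single markers were not compared for soft 4. Set against the cardiomyocyte sum of the same library, Ckm was 1.84 to 2.10 CPM per 1000 CPM of markers in stiff libraries, against 1.86 to 2.08 in soft 1 to 3 and 5.53 in soft 4. The other 7 libraries thus lay within a narrow band from 1.84 to 2.10, and soft 4 was 2.77-fold their median. Ckb per 1000 CPM of markers was 1.53 to 2.13 on stiff, against 1.59 to 2.54 in soft 1 to 3 and 3.42 in soft 4. Ckmt2 on that scale was 0.472 to 1.59 on stiff, against 0.909 to 1.69 in soft 1 to 3 and 2.35 in soft 4. The part that the cell mixture has in these levels was not tested.

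**Figure D3:**
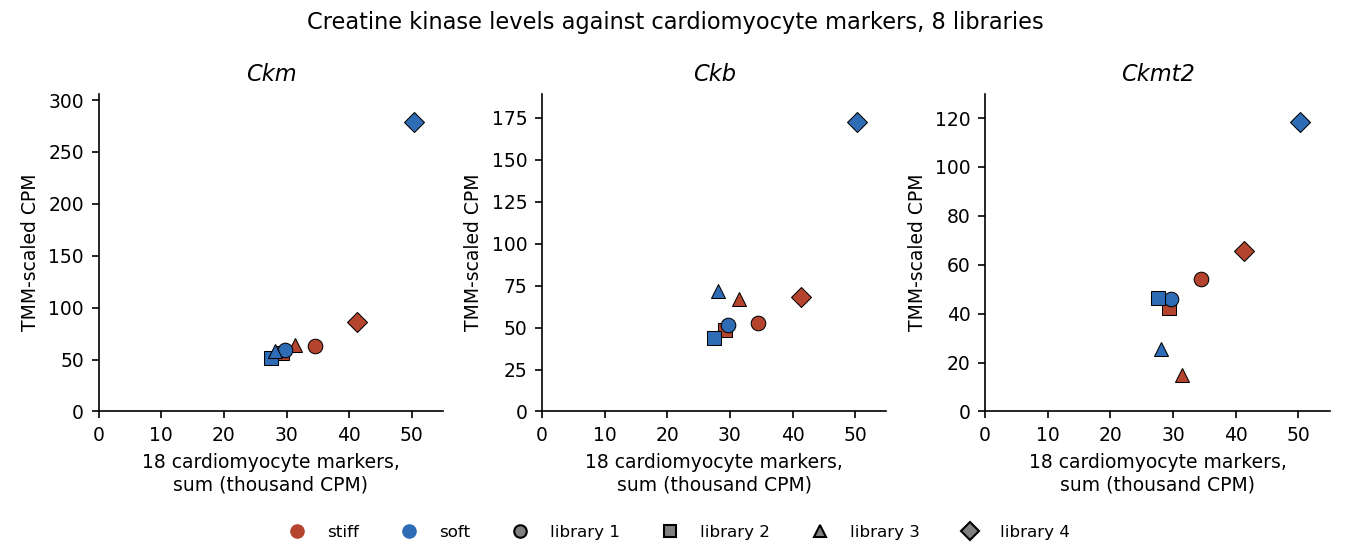
TMM-scaled CPM of Ckm, Ckb and Ckmt2 (vertical axes) against the summed CPM of 18 cardiomyocyte markers (horizontal axes, divided by 1000), 1 point per library, stiff in red and soft in blue, shaped by library number. For Ckm the other 7 libraries lie on a line of 1.84 to 2.10 CPM per 1000 CPM of markers and soft 4 lies above it at 5.53; for Ckmt2, stiff 3 and soft 3 lie lowest.

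The promoters of these 3 kinases are shown because they shared their highest library. Each window is RefSeq sequence of GRCm38.p6 from 250 bases before to 50 bases after an annotated start, on the strand of the gene, and 6 of the 7 members matched a window. Capitals mark matches to any of 5 motifs, each looked for on both strands. One is TATANA, the pattern of a core promoter box. Another is CANNTG, the E-box pattern bound by muscle basic helix-loop-helix factors. The others are CCAAT, the MEF2 motif and the CArG box of SRF.
Ckm, chr7:19410844-19411143, plus strand: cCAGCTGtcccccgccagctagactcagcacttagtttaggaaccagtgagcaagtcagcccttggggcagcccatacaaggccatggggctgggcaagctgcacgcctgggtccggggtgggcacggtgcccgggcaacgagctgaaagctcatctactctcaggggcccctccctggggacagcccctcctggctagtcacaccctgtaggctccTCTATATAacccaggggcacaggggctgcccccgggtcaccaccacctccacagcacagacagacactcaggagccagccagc
Ckb, chr12:111672289-111672588, minus strand: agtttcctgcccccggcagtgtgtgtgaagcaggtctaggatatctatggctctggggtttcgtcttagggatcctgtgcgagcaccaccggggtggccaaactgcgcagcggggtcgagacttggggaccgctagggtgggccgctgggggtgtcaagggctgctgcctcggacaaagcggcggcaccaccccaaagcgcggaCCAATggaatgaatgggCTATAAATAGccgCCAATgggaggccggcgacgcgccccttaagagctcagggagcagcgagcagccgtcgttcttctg
Ckmt2, chr13:91876836-91877135, minus strand: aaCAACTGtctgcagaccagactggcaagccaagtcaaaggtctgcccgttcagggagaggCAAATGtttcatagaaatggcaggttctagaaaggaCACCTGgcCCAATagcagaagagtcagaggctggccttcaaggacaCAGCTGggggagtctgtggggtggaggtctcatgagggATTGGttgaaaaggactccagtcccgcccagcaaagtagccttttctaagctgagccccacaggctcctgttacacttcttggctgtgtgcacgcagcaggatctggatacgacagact
Ckm holds overlapping TATANA matches that begin at -33 and -31 and 1 CANNTG at -249. Ckb holds CCAAT at -46 and -16, and between them, at -29, a MEF2 motif that contains its TATANA match. Ckmt2 holds 4 CANNTG matches and 2 CCAAT matches and no TATANA. Among 32851 windows of this length, 24.7% held TATANA, 72.3% held CANNTG, 37.4% held CCAAT, 3.19% held the MEF2 motif and 1.63% held the CArG box. No motif was held by all 3, and these matches describe letters, not bound sites.

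The ratio of Ckb to Ckm counts, a common index of the switch from brain-type to muscle-type kinase in developing muscle, does not depend on library scaling. It was 0.833, 0.853, 1.05 and 0.786 in stiff libraries 1 to 4, against 0.867, 0.854, 1.22 and 0.618 in soft libraries 1 to 4. Library 3 had the highest ratio and library 4 the lowest on both substrates, so that the spread lay within the substrates and the stiff values lay inside the soft range. The counting interval (exact binomial, 95%) was 1.15 to 1.31 in soft 3 and 0.597 to 0.640 in soft 4. The mean was 0.880 ± 0.115 on stiff and 0.891 ± 0.250 on soft (SD, n = 4 each), and the mean log2 ratio differed by 0.02 (stiff minus soft), with an exact permutation p of 1 (two-sided, 1 after adjustment over 2 ratios). With 4 against 4 libraries the smallest p possible is 0.0286. Because the ratio is of counts and not of counts per length, a ratio of 1 does not mean equal numbers of transcripts. The smooth muscle and pericyte sum was also the highest of each substrate in stiff 3 (3352 CPM) and soft 3 (3911 CPM). It was lowest of stiff in stiff 4 (2225 CPM), but in soft 4 (3288 CPM) it was above soft 1 and 2. The part that the cell mixture has in the Ckb to Ckm ratio was not tested.

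The ratio of Ckmt2 to Ckm, mitochondrial to cytosolic muscle enzyme, was 0.854, 0.751, 0.232 and 0.759 in stiff libraries 1 to 4, against 0.775, 0.911, 0.438 and 0.425 in soft libraries 1 to 4. Stiff 3 was far below the other stiff libraries, and soft 3 and soft 4 below the other soft ones, soft 4 with high and soft 3 with low Ckmt2. The mean was 0.649 ± 0.282 on stiff and 0.637 ± 0.244 on soft (SD, n = 4 each), and the mean log2 ratio differed by -0.05 (exact permutation p = 0.857, two-sided, 1 after adjustment). Its sign depended on single libraries, turning to 0.39 without stiff 3. In stiff 3 and soft 3, markers of fibroblasts (14161 and 16635 CPM) and of smooth muscle and pericytes (3352 and 3911 CPM) were above those in libraries 1 and 2 of the same substrate. The fibroblast sum was also above libraries 1 and 2 in libraries 4, at 13179 CPM in stiff 4 and 17343 CPM in soft 4, where Ckmt2 was highest. The smooth muscle and pericyte sum was 2225 CPM in stiff 4, below stiff 1 to 3, and 3288 CPM in soft 4, above soft 1 and 2. The part that the cell mixture has in this ratio was not tested.

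**Figure D4:**
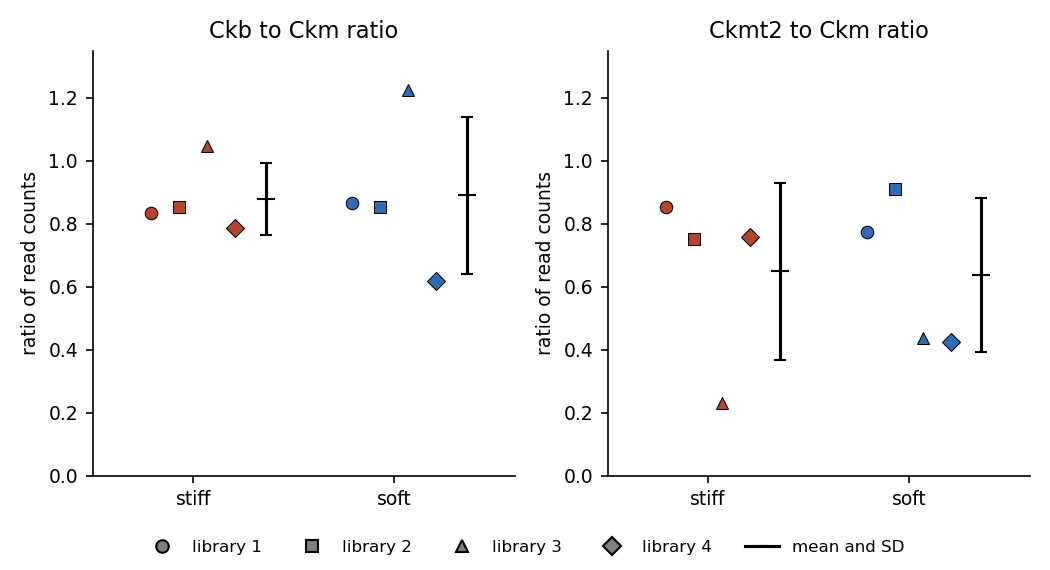
Ratios of read counts by library, Ckb to Ckm on the left and Ckmt2 to Ckm on the right, on linear axes from 0; points are libraries shaped by number, stiff in red left of soft in blue, and the black bar is the mean and SD of 4 libraries. The substrate means are 0.880 and 0.891 for Ckb to Ckm and 0.649 and 0.637 for Ckmt2 to Ckm, in the order stiff and soft, and library 3 is highest in the left panel on both substrates.

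Genes around the phosphocreatine circuit were read from 8 lists, and 0 of their tested members were called in either direction. Over the 14059 tested genes as a whole the median was -0.01 on the log2 scale and 48.1% had higher estimates on stiff. Without soft 4 that median was 0.0039 and 50.6% had higher estimates. Adenylate kinases, which also exchange phosphate between adenine nucleotides, and AMP deaminases had 4 higher and 4 lower estimates and a median of -0.01. These became 5 higher and 3 lower with a median of 0.06 without soft 4. Ak6 stood at 12.2 ± 1.92 CPM on stiff and 18.9 ± 1.64 CPM on soft (SD, n = 4 each). The stiff and soft values did not overlap, as for 1.29% of all tested genes. The log2 fold change was -0.63 (SE 0.27, edgeR adjusted p = 0.99997), but the gene overlaps Taf9 and reads of the pair are uncertain. Ak1, the main cytosolic adenylate kinase gene of muscle, stood at 106 ± 11.5 CPM on stiff and 124 ± 39.3 CPM on soft. Its highest library was soft 4, at 180 CPM, without which its log2 fold change moved from -0.23 to 0.01. The log2 fold change of Ampd2 was -0.28 (SE 0.23), and that of Ak3, of the mitochondrial matrix, was 0.14 (SE 0.19).

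Carriers that exchange ATP, ADP and phosphate across the mitochondrial membranes had 4 higher and 2 lower estimates, with a median of 0.01. These became 5 higher and 1 lower with a median of 0.05 without soft 4. Slc25a4, the ADP/ATP carrier gene of heart and muscle, stood at 643 ± 33.5 CPM on stiff and 732 ± 247 CPM on soft, with 1083 CPM in soft 4. The channel genes Vdac1, Vdac2 and Vdac3 had log2 fold changes of 0.03, 0.01 and 0.04. The 16 ATP synthase genes had 3 higher and 13 lower estimates and a median of -0.07, which became 10 higher and 6 lower with a median of 0.03 without soft 4. Atp5b, the catalytic beta subunit gene, stood at 1766 ± 44.5 CPM on stiff and 1810 ± 416 CPM on soft, and Atp5a1 at 1116 ± 72.4 CPM on stiff and 1127 ± 329 CPM on soft. Log2 fold changes were -0.23 (SE 0.17) for Atpif1, the inhibitor of the synthase, -0.28 (SE 0.22) for Atp5h and -0.22 (SE 0.20) for Atp5k. Without soft 4 the log2 fold change turned from -0.19 to 0.07 for Slc25a4, from 0.04 to -0.04 for Vdac3, from -0.04 to 0.14 for Atp5b and from -0.01 to 0.22 for Atp5a1, and that of Atp5k became -0.08.

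Genes that supply arginine, glycine and methyl groups, the substrates of creatine synthesis, had 5 higher and 16 lower estimates among 21 tested, with a median of -0.11. Without soft 4 they had 13 higher and 8 lower and a median of 0.07. Shmt2, a mitochondrial glycine-forming enzyme gene, stood at 61.5 ± 33.3 CPM on stiff and 82.8 ± 60.1 CPM on soft, and the arginine transporter gene Slc7a3 at 26.4 ± 13.9 CPM on stiff and 35.2 ± 25.1 CPM on soft. Soft 4 held 167 CPM of Shmt2 and 65.0 CPM of Slc7a3, and without it their log2 fold changes turned from -0.43 to 0.18 and from -0.42 to 0.07. Log2 fold changes were 0.08 (SE 0.24) for Mat2a, which makes the methyl donor S-adenosylmethionine, 0.13 (SE 0.20) for Ahcyl1 and -0.28 (SE 0.28) for Asl, which makes arginine, and without soft 4 Mat2a stood at 0.30 and Ahcyl1 at -0.0042.

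M-band proteins, the structure at the middle of the sarcomere to which the muscle creatine kinase binds, had 1 higher and 4 lower estimates and a median of -0.11. Obsl1 stood at 73.5 ± 13.5 CPM on stiff and 93.8 ± 41.2 CPM on soft, and Fhl2, which tethers metabolic enzymes to the sarcomere, at 597 ± 111 CPM on stiff and 646 ± 104 CPM on soft. Without soft 4, which held 152 CPM of Obsl1, the list had 2 higher and 3 lower estimates and a median of -0.01, and the log2 fold change of Obsl1 moved from -0.35 to -0.01. Subunits of AMP-activated kinase, the sensor of low energy charge, had 6 higher and 2 lower estimates and a median of 0.07. Without soft 4 these counts stayed the same and the median was 0.08. Prkab1 stood at 19.9 ± 3.06 CPM on stiff and 15.6 ± 0.832 CPM on soft, and the log2 fold change of Prkaa2, the catalytic subunit gene of muscle, was 0.13 (SE 0.21), or 0.03 without soft 4. Factors tied to creatine kinase genes had 1 higher and 12 lower estimates and a median of -0.16, with Esrrg at a log2 fold change of -0.27 (SE 0.22), Srf at -0.32 (SE 0.35), Mef2a at 0.03 (SE 0.17) and Tead1 at -0.16 (SE 0.19). Without soft 4 this list had 4 higher and 9 lower estimates and a median of -0.07, and Srf turned to 0.17 and Mef2a to -0.07. Among other transporters of the SLC6 family, 4 of 17 were tested and all 4 had higher estimates on stiff, with a median of 0.29. Slc6a6, the taurine transporter gene, stood at 288 ± 97.9 CPM on stiff and 272 ± 97.5 CPM on soft, with a log2 fold change of 0.08 that became 0.34 without soft 4.

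The genes whose log2 CPM followed each member most closely over the 8 libraries were read out among 6191 others with a mean of at least 32 CPM, as a description with no test. Since 1 library was far from the rest for the kinases, Pearson's r is also given over the other 7. For Ckm they were Hist1h1c (r = 0.98, and 0.80 over 7), Khsrp (0.98, and 0.85) and Mdh2 (0.97, and 0.80), a linker histone, an RNA-binding protein and mitochondrial malate dehydrogenase. For Ckb they were Ak1 (0.98, and 0.94), Cltb (0.98, and 0.89) and Hk1 (0.98, and 0.94), the last a hexokinase gene. For Ckmt2 they were Sdha (0.95, and 0.91), a subunit of respiratory complex II, Fhl2 (0.93, and 0.96) and the muscle cytoskeletal gene Synpo2l (0.93, and 0.88). For Slc6a8 they were Mxd4 (0.97, and 0.96), Gmpr (0.90, and 0.93) and Snx33 (0.90, and 0.89), and for Gatm Tet1 (0.97, and 0.97), Sh3bp5 (0.97, and 0.98) and Rae1 (0.96, and 0.98). The leading genes of the 5 members had none in common.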

How the data were processed

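RNA sequencing of 8 libraries (4 stiff, 4 soft, grouped by the substrate label) was used. The authors deposited raw read counts per Ensembl gene. Per the submitters' processing notes, the tools were HTSeq 0.6.1, TopHat2 2.0.14 and TopHat, Bowtie2, Cufflinks, FastQC 0.11.2, edgeR and DESeq2, with no role given, on build GRCm38; strand handling is not given in the sources used here. Of 29844 rows, 29150 matched a symbol by Ensembl ID; the rest hold 0.106% of counts. Totals ran from 27646471 to 34693673 counts per library. No library pair agreed within sampling noise (chi-square per degree of freedom at least 46.4 over 28 pairs).

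In R 4.3.3, edgeR 4.0.16 with filterByExpr (minimum count 10, minimum total 15) kept 14059 genes. TMM scaling and edgeR's quasi-likelihood test (robust setting, no term but substrate) gave log2 fold changes stiff over soft. The SE is not an output of edgeR and was derived as the absolute log2 fold change over the square root of the test's F statistic. The 95% intervals were built from that SE and the t distribution. The p-values were adjusted by Benjamini-Hochberg over all genes tested, and 0.05 was the threshold. The fitting script was tested on simulated data. Ratios of counts were set against each other with an exact permutation test (two-sided) in scipy 1.17.1. Alternatives were other scalings, filters, DESeq2 1.42.0, limma-voom (limma 3.58.1), a replicate block and each library left out. Ratios per kilobase were not computed for want of transcript lengths.

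Named genes are all 7 members, genes of each other list taken from the 3 lowest p-values and the 2 highest levels, and the 3 genes most like each member at 32 CPM or more. Myom3, Prkag3, Prkag2, Prkab2, Ppara, Slc6a7, Slc6a15 and Slc6a17 fell under the rule and are left out for brevity, and some single genes of the lists are not reported here. Markers of 8 cell types were summed per library. The members and lists were chosen with earlier results of these data known. Intervals on ratios and floors cover counting error only, as PCR reads are not independent molecules. Gene positions and promoter windows are RefSeq's on GRCm38.p6.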

Additional observations from a re-analysis of the deposited data

Results flagged for a closer look

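Among 32 groups of 4 libraries looked at (6 members, 2 ratios and 8 marker sums on each substrate), 4 held a library whose gap to the next one exceeded Dixon's 95% critical value; chance flags about 1 in 20 groups. Soft 4 stood apart for Ckm, at 278 CPM, where soft 1 to 3 had 51.1 to 59.3 CPM. Soft 4 also stood apart for the summed cardiomyocyte markers, at 50324 CPM. Stiff 3 stood apart for the ratio of Ckmt2 to Ckm counts, at 0.232. Soft 1 stood apart for the summed leukocyte markers, at 184 CPM, where soft 2 to 4 had 125 to 135 CPM.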

How the results depend on the processing

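No coding gene was called in the edgeR fit, under 16 other settings or under the added replicate block without the number 4 libraries. The lowest adjusted p of any gene was 0.99997 in the edgeR fit and 0.385 in DESeq2. It was 0.346 in the edgeR replicate block fit and 0.0553 in the added edgeR block fit, close to the threshold. An unadjusted p under 0.05 was found for 130 genes in edgeR, 322 in DESeq2, 181 in limma-voom, 473 with no filter, 360 in the replicate block fit and 548 in the added one. DESeq2 gave no p for Ckm. Other scalings, filters and tools kept the sign of all 6 members, but limma-voom brought Ckm to -0.33, Ckb to -0.31 and Gamt to 0.14. With 1 library left out, the log2 fold change ran from -0.97 to 0.27 for Ckm, -0.74 to 0.10 for Ckb, -0.67 to 0.17 for Ckmt2, -0.19 to 0.048 for Slc6a8, -0.041 to 0.16 for Gatm and -0.12 to 0.49 for Gamt, and the mean log2 ratio difference from -0.15 to 0.18 for Ckb to Ckm and -0.24 to 0.39 for Ckmt2 to Ckm. As linear ratios these differences turned to -0.011 and 0.012. In the replicate block fit, with the library number as the block, log2 fold changes were -0.31 for Ckm, -0.31 for Ckb and -0.38 for Ckmt2 (unadjusted p = 0.0614, adjusted 1.00000), and no call changed. Equal numbers follow accession order and the last digit of the library codes, while the rest of the code differs between substrates and cannot be told apart from them. Deviations of equal numbers correlated at 0.104, 0.181, 0.128 and 0.305, and soft 1 correlated better with stiff 2 (0.112) than with stiff 1. Settings chosen after seeing the data were the replicate block without the number 4 libraries, which turned Ckm to 0.13, Ckb to 0.034 and Slc6a8 to 0.11, and levels relative to the cardiomyocyte sum, which turned none. The cause of these turns was not tested. Ratios per kilobase were not run. Gamt had the fewest counts of the tested members, 71 to 299 per library.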
